A study of Mus musculus with 12 samples.

Results

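The 8 genes described here encode the cannabinoid receptor CB1 and the enzymes that make and break down its lipid ligands: *Cnr1*, *Dagla*, *Daglb*, *Mgll*, *Abhd6*, *Abhd12*, *Napepld* and *Faah*. They were chosen by symbol for these roles, and all 8 were measured among 16855 genes on a chow diet and 16744 genes on a high-fat diet (HFD). The study asked which hypothalamic genes respond to loss of GPR75, a G protein–coupled receptor, and sequenced hypothalamus mRNA from 12 male mice on the *C57BL/6J* background at 8 weeks of age. The 4 groups of 3 mice were WT on chow, *Gpr75-/-* on chow, WT on the HFD and *Gpr75-/-* on the HFD. HFD feeding lasted 2 weeks and began at 6 weeks of age. The *Gpr75-/-* mice were homozygous for a CRISPR/Cas9-made allele that shifts the reading frame near the start codon and ends translation early, in all cells of the body. The values are 1 mean, 1 log2 fold change and 1 standard error per gene and diet, so values of single mice and leave-out fits were not analysed here.

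Endocannabinoids are lipids that neurons release on demand and that act backward across the synapse on presynaptic CB1, a receptor coupled to inhibitory G proteins, to lower transmitter release. The best known are 2-arachidonoylglycerol (2-AG), made from diacylglycerol, and anandamide, made from N-acyl phosphatidylethanolamines, and each has its own enzymes of synthesis and hydrolysis. In the hypothalamus this signaling is known for promoting feeding, and receptors coupled to Gq supply diacylglycerol through phospholipase C.

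*Gpr75* mRNA (chromosome 11, 30835358 to 30843729) does not check the genotype, since the allele changes the reading frame and need not remove the transcript. On chow its level was 1.47-fold that of WT mice (95% interval 1.25 to 1.73), with a Benjamini-Hochberg adjusted p of 0.00760 in the Wald test. Like the other calls named below, that one rests on the normal distribution, since a t distribution with 4 degrees of freedom called 0 genes on chow and 0 on the HFD. On the HFD the same gene had a fold of 0.956 with a wide interval of 0.598 to 1.53. In the Wald test of the difference between the diets *Gpr75* was not called (unadjusted p = 0.0913). All 12 of 12 hypothalamic marker genes were measured on both diets, led by *Pmch*, the melanin-concentrating hormone gene, with a mean of 4589 normalized counts on chow. Levels below are normalized counts, that is, reads per gene after the authors' scaling for depth. The mean over the 6 mice of a diet was divided between the genotypes by the fold change, and the interval of a group's level assumes the same spread in both genotypes. Each log2 fold change is *Gpr75-/-* over WT, given ± its standard error (SE) for 3 against 3 mice. Positions are those of the deposited annotation, on the mouse build GRCm39 that the submitters' processing notes name.

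Loss of *Gpr75* was not accompanied by a called change in any of the 8 genes on either diet. On chow, 0 of 8 had an adjusted p under 0.05 in the Wald test with Benjamini-Hochberg adjustment, against 0.0618% of the 16191 genes tested. The count at an unadjusted p under 0.05 was also 0 of 8 on chow, where 4.68% of all genes tested passed. On the HFD, 0 of 8 passed the adjusted threshold of the Wald test and 0 of 8 the unadjusted one, beside 0.199% and 4.49% of the 16089 genes tested. At shares this low in the background, a count of 0 among 8 genes is not a result about the members, and the intervals of the folds say more. Across the 16 tests the 95% intervals of the folds ran from 0.796 at the lowest (*Mgll*, chow) to 1.23 at the highest (*Napepld*, chow), and each interval included 1. Folds beyond those bounds lie outside the interval of each member, and what smaller folds are left depends on the interval of each gene, given below. All intervals here rest on the normal distribution, as the calls do. With a t distribution of 4 degrees of freedom they would be wider. The Benjamini-Hochberg adjusted p-values of the 8 genes were all close to 1 on each diet.

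The direction of the point estimates was mixed. On chow 5 of 8 genes had a fold above 1, with a median log2 fold change of 0.033, beside 48.9% and -0.0029 over all genes tested. On the HFD 3 of 8 had a fold above 1, with a median of -0.052, beside 52.0% and 0.0045 over all genes. These genes were measured more precisely than most. Their median SE was 0.097 on chow and 0.086 on the HFD, against 0.12 and 0.11 for all genes tested. Their SEs were 1.84 to 4.12 times the error from counting reads alone, which makes counting 5.88% to 29.4% of the squared SE. What the rest holds, such as differences between mice, dissection or library preparation, was not tested. To be called, these genes would have needed a fold between 1.15 (*Abhd12*, HFD) and 1.36 (*Cnr1*, chow) upward, or between 0.868 and 0.737 downward. In bulk tissue, fewer cells of a type and less RNA per cell cannot be told apart, and this holds for each value below.

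*Cnr1* (ENSMUSG00000044288, chromosome 4, 33924593 to 33948831) encodes CB1, the receptor on presynaptic terminals through which these lipids act. On chow its level was 2059 normalized counts in WT mice (95% interval 1859 to 2281) and 2116 in *Gpr75-/-* mice (1910.3 to 2343). The log2 fold change was 0.039 ± 0.11, a fold of 1.03 (95% interval 0.889 to 1.19). The group intervals overlapped over most of their length. On the HFD the levels were 2483 normalized counts in WT mice (2302 to 2678) and 2379 in *Gpr75-/-* mice (2206 to 2566). The log2 fold change there was -0.062 ± 0.079, a fold of 0.958 (0.861 to 1.07). The receptor thus had point estimates on opposite sides of 1 on the diets, each within 1 SE of 0. Among the 16 tests, *Cnr1* on chow had the largest ratio of SE to counting error, 4.12; an SE of that size corresponds to a spread between the samples of a group of about 9.44% of the level.

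Synthesis of 2-AG rests on the diacylglycerol lipases. *Dagla* (ENSMUSG00000035735, chromosome 19, 10222629 to 10282241) encodes the alpha enzyme, the main source of synaptic 2-AG in adult brain. Its level on chow was 948 normalized counts in WT mice (865 to 1038) and 974 in *Gpr75-/-* mice (889 to 1067), with a log2 fold change of 0.039 ± 0.095 and a fold of 1.03 (0.903 to 1.17). On the HFD it was 938 in WT mice (865 to 1016) and 879 in *Gpr75-/-* mice (811 to 953), with a log2 fold change of -0.093 ± 0.084 and a fold of 0.938 (0.837 to 1.05). *Dagla* had the smallest unadjusted p of the 8 genes on the HFD, 0.269 in the Wald test, which is above the threshold by a wide margin.

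*Daglb* (ENSMUSG00000039206, chromosome 5, 143450339 to 143491697) encodes the beta enzyme, known best from microglia and macrophages. Its level on chow was 540.0 normalized counts in WT mice (491 to 594) and 552 in *Gpr75-/-* mice (502 to 607), a log2 fold change of 0.032 ± 0.10. On the HFD it was 596 in WT mice (547 to 648) and 633 in *Gpr75-/-* mice (582 to 688), a log2 fold change of 0.087 ± 0.088. *Daglb* was thus above 1 on both diets as a point estimate, with folds of 1.02 (0.893 to 1.17) and 1.06 (0.943 to 1.20). Its value carries a limit of position. In the deposited positions its 3′ end overlaps that of *Rac1*, which is transcribed from the opposite strand, by 2309 bases. *Rac1*, a small GTPase gene, had a mean of 6206 normalized counts on chow and 7099.7 on the HFD, beside 546 and 614 for *Daglb*. Whether counting used the strand is not given in the sources used here, and without strand, reads of the overlap cannot be told apart. *Rac1* itself had log2 fold changes of 0.089 ± 0.062 on chow and -0.036 ± 0.049 on the HFD.

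Hydrolysis of 2-AG is shared by 3 serine hydrolases. *Mgll* (ENSMUSG00000033174, chromosome 6, 88701394 to 88805342) encodes monoacylglycerol lipase, which carries out most 2-AG hydrolysis in brain. On chow its level was 1023 normalized counts in WT mice (934 to 1119) and 925 in *Gpr75-/-* mice (845 to 1013). The log2 fold change was -0.14 ± 0.094, a fold of 0.905 (0.796 to 1.03), and its unadjusted p of 0.125 in the Wald test was the smallest of the 16. On the HFD the levels were 901 in WT mice (818 to 993) and 837 in *Gpr75-/-* mice (759.7 to 923), and the log2 fold change was -0.11 ± 0.10, a fold of 0.929 (0.810 to 1.07). *Mgll* was the member farthest from 1 on each diet, in the same direction, and on neither diet did its interval leave out 1. The long noncoding gene *Gm26588*, on the opposite strand, and *Gm44001*, a locus of unsettled type on the strand of *Mgll*, overlap its position by 1449 and 3773 bases. Even counting by strand would not separate reads of *Gm44001* from those of *Mgll*. Both loci had at most 30.4 normalized counts, against 974 and 869 for *Mgll*.

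*Abhd6* (ENSMUSG00000025277, chromosome 14, 14413010 to 14466871) encodes a membrane hydrolase found in postsynaptic neurons, where it limits the 2-AG that reaches CB1. Its level on chow was 811 normalized counts in WT mice (736 to 894) and 761 in *Gpr75-/-* mice (691 to 839), a log2 fold change of -0.092 ± 0.10 and a fold of 0.939 (0.818 to 1.08). On the HFD it was 778 in WT mice (709 to 854) and 790.1 in *Gpr75-/-* mice (720.0 to 867), a log2 fold change of 0.022 ± 0.097 and a fold of 1.02 (0.890 to 1.16). The point estimate was below 1 on chow and above 1 on the HFD, and both lay within 1 SE of 0. *Abhd12* (ENSMUSG00000032046, chromosome 2, 150674413 to 150746661) encodes a hydrolase that also breaks down lysophosphatidylserine. Its level on chow was 3906 normalized counts in WT mice (3672 to 4155) and 3999 in *Gpr75-/-* mice (3759 to 4253), a log2 fold change of 0.034 ± 0.064 and a fold of 1.02 (0.938 to 1.12). On the HFD it was 4256 in WT mice (4046 to 4476) and 4389 in *Gpr75-/-* mice (4173 to 4616), a log2 fold change of 0.044 ± 0.053 and a fold of 1.03 (0.960 to 1.11). *Abhd12* had the smallest SE of the 8 genes on each diet, so its intervals set the tightest bounds on a genotype effect.

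Anandamide and related N-acylethanolamines are released from their phospholipid precursors by the phospholipase D that *Napepld* (ENSMUSG00000044968, chromosome 5, 21867899 to 21906394) encodes. On chow its level was 545 normalized counts in WT mice (496 to 599) and 587 in *Gpr75-/-* mice (534 to 645). The log2 fold change was 0.11 ± 0.099, a fold of 1.08 (0.942 to 1.23), the highest of the 8 genes on that diet. On the HFD the levels were 615 in WT mice (560.3 to 675) and 585 in *Gpr75-/-* mice (532 to 642), with a log2 fold change of -0.074 ± 0.097 and a fold of 0.950 (0.832 to 1.08). The estimates on the diets thus had opposite signs. The processed pseudogene *Gm15719* overlaps the position of *Napepld* and had 21.1 normalized counts on chow. *Faah* (ENSMUSG00000034171, chromosome 4, 115824342 to 115875123) encodes fatty acid amide hydrolase, the main enzyme that degrades anandamide. Its level on chow was 756 normalized counts in WT mice (689 to 829) and 741 in *Gpr75-/-* mice (676 to 813), a log2 fold change of -0.028 ± 0.096 and a fold of 0.981 (0.861 to 1.12). On the HFD it was 739 in WT mice (681 to 801) and 717 in *Gpr75-/-* mice (662 to 777), a log2 fold change of -0.043 ± 0.084 and a fold of 0.971 (0.866 to 1.09). Estimates for *Faah* were below 1 on both diets by less than 1 SE.

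**Figure D1:**
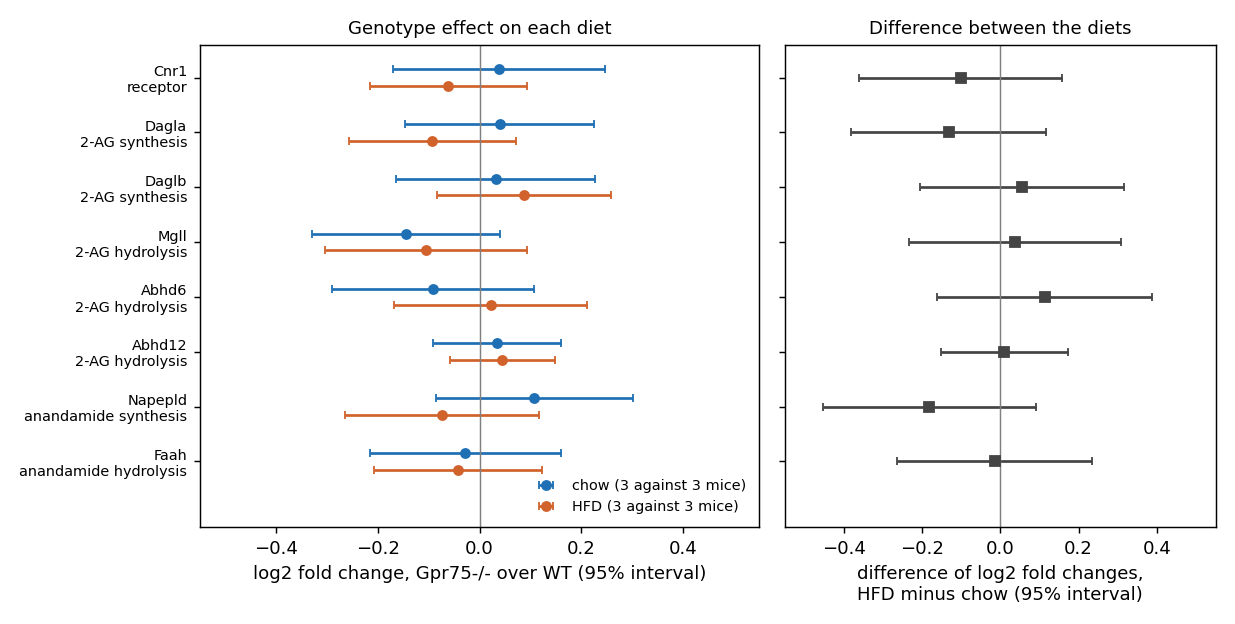
Log2 fold change of *Gpr75-/-* over WT mice for each gene (left, blue for chow and orange for the HFD, 3 against 3 mice each) and the difference between the diets, HFD minus chow (right). Points are estimates and bars 95% intervals from the standard error; each bar crosses 0, and *Mgll* has the lowest estimate on each diet, -0.14 on chow and -0.11 on the HFD.

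Whether the genotype effect differed between the diets was tested directly, by subtracting the chow log2 fold change from the HFD one, since each diet had its own WT mice. For these genes 0 of 8 had an adjusted p under 0.05 in the Wald test of the difference and 0 of 8 an unadjusted p under 0.05, beside 0% and 2.89% of the 15893 genes tested on both diets. The farthest from 0 was *Napepld*, the anandamide synthesis gene, with a difference of -0.18 ± 0.14 (95% interval -0.45 to 0.090, unadjusted p = 0.191). *Dagla* followed with -0.13 ± 0.13 (-0.38 to 0.12). *Abhd6* had the highest difference, 0.11 ± 0.14 (-0.16 to 0.39). For *Cnr1*, the receptor gene, the difference was -0.10 ± 0.13 (-0.36 to 0.16). The remaining differences, for *Daglb*, *Mgll*, *Abhd12* and *Faah*, lay between -0.015 and 0.056. The median over the 8 genes was -0.0020, beside 0.0055 over all genes tested. The *Mgll* estimates, on the same side on chow and the HFD, differed by 0.039 ± 0.14, less than 1 SE.

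To set the genes beside each other, levels were divided by exon length and are given as mean normalized counts per kb over the 6 mice of a diet, separately for each diet because the tables were normalized separately. On chow *Abhd12*, a 2-AG and lysophospholipid hydrolase gene, stood highest at 1400.0 per kb, 4.21 (3.88 to 4.57) times the next gene. *Abhd6* at 332 and *Cnr1* at 324 per kb followed and did not differ beyond their spread, with a ratio of 1.03 (0.929 to 1.13). The intervals of such ratios take the errors of the genes as independent, although the genes were read in the same mice. The main hydrolase gene *Mgll* was at 192 per kb, and the synthetic enzyme gene *Dagla* at 167, a ratio of 1.15 (1.05 to 1.26). The anandamide genes came lower, *Napepld* at 143 and *Faah* at 95.6 per kb, and *Daglb* was lowest at 57.1. Within each role, then, *Dagla* was above *Daglb* and *Abhd12* above *Abhd6* and *Mgll*. Among 13594 protein-coding genes tested on chow with a known length, the level per kb of *Abhd12* was at percentile 96.5, that of *Cnr1* at 79.3 and that of *Daglb* at 30.4.

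On the HFD *Abhd12* was again highest, at 1531 normalized counts per kb. *Cnr1* at 377 stood above *Abhd6* at 332, with a ratio of 1.14 (1.05 to 1.24). *Mgll* at 171, *Dagla* at 158 and *Napepld* at 152 per kb formed a run in which, with these lengths, neighbors did not differ beyond their spread. Their ratios were 1.08 (0.991 to 1.18) for *Mgll* over *Dagla* and 1.04 (0.955 to 1.14) for *Dagla* over *Napepld*. *Faah* was at 92.9 and *Daglb* at 64.2 per kb. The spread behind these intervals was small. The SEs correspond to a spread between the samples of a group of 4.56% (*Abhd12*, HFD) to 9.44% (*Cnr1*, chow). The exon lengths add an uncertainty that the intervals do not hold, since it is not known which transcripts were made. With the longest transcript in place of all exons, *Daglb* on chow would be at 112 per kb and *Cnr1* at 359, above *Abhd6* at 353, and the rest of the order on chow was the same, with *Napepld* over *Faah* at a ratio of 1.06 (0.964 to 1.16). On the HFD the order stayed but its gaps changed. *Mgll* at 218 per kb would then stand above *Dagla* at 161, at a ratio of 1.35 with a lower bound of 1.24, and *Faah* at 131 would be close to *Daglb* at 126, a ratio of 1.04 (0.961 to 1.13). Which of these neighbors differ thus depends on the length used.

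**Figure D2:**
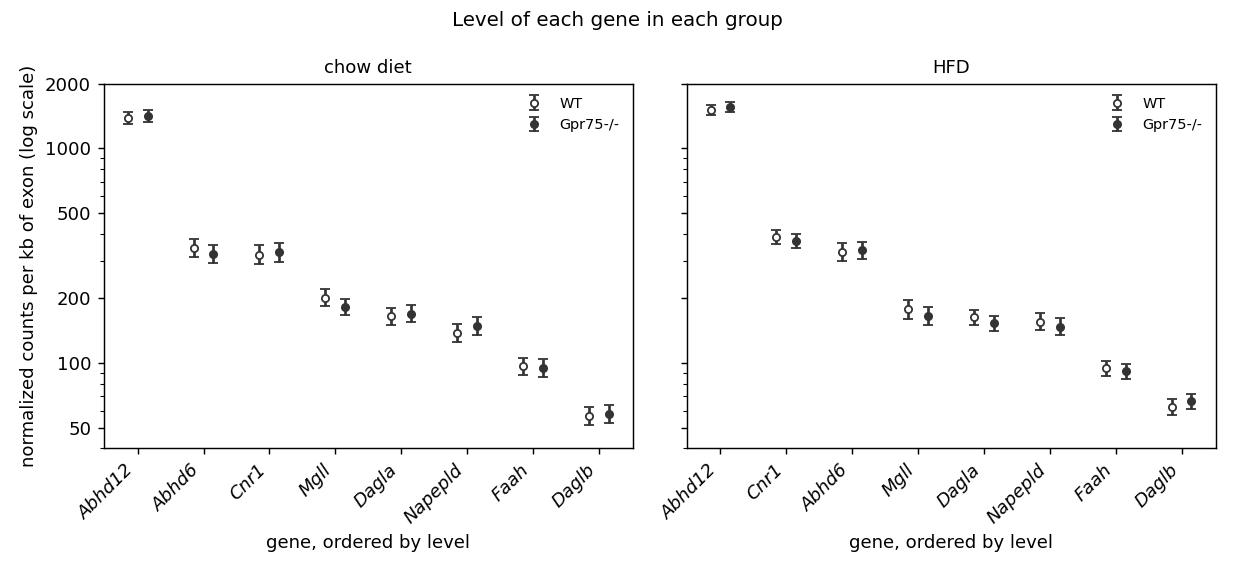
Level of each gene in normalized counts per kb of exon (log axis) in WT (open) and *Gpr75-/-* (filled) mice, chow on the left and the HFD on the right, with genes ordered by their mean level on that diet. Bars are 95% intervals from the standard error of the fold change, 3 mice per group; the genotypes overlap for each gene, and the genes span 56.4 (*Daglb*) to 1384 per kb (*Abhd12*) in WT mice on chow.

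Of 45 other genes of the pathway, 32 were tested on chow and 31 on the HFD; the remaining ones had too few counts for the test or, like the CB2 receptor gene *Cnr2*, were not analysed here. In the Wald test with Benjamini-Hochberg adjustment, 0 passed in either direction on each diet. At an unadjusted p under 0.05 there were 3 on chow (9.38%, against 4.68% of all genes), 1 with a fold above 1 and 2 below, and 2 on the HFD (6.45%, against 4.49%), both below 1. On chow 9 of 32 had a fold above 1 (28.1%, against 48.9% of all genes), and on the HFD 16 of 31 (51.6%, against 52.0%). The median log2 fold change of these other genes was -0.022 for chow and 0.0020 for the HFD. In the next sentences *Plcb1*, *Lpl*, *Pnpla2* and *Grm5* were chosen after their values were seen; the others are the most abundant of their role on chow or the HFD.

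*Gprasp1*, the most abundant of 3 genes whose proteins bind CB1 or steer its trafficking, had a mean of 26269 normalized counts on chow and log2 fold changes of 0.041 ± 0.065 there and 0.012 ± 0.041 on the HFD. Where paired values follow without a diet, the first is chow and the second the HFD. The precursor of 2-AG comes from phospholipase C acting downstream of Gq-coupled receptors. *Plcb4*, a phospholipase C beta gene and the most abundant of that group on chow, had log2 fold changes of -0.015 ± 0.072 on chow and -0.13 ± 0.056 on the HFD, where its unadjusted p was 0.0176. *Gnaq*, which encodes the Gq alpha subunit and led the group on the HFD, was at -0.017 ± 0.061 and 0.045 ± 0.049. *Plcb1*, the phospholipase C beta that couples Gq receptors to 2-AG release in forebrain neurons, was at -0.17 ± 0.082 on chow (unadjusted p = 0.0362) and -0.14 ± 0.065 on the HFD (unadjusted p = 0.0254). It was the 1 gene of the pathway below an unadjusted p of 0.05 on both diets, and neither value passed the Benjamini-Hochberg adjustment of the Wald test, where the lower adjusted p was 0.910, on the HFD. *Grm5*, the gene for the glutamate receptor that drives 2-AG release at many synapses, had -0.30 ± 0.24 on chow and -0.052 ± 0.060 on the HFD, and its SE on chow was 10.4 times the counting error.

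Among other lipases, *Ddhd1*, a phospholipase A1 gene, was the most abundant at 1769 normalized counts on chow, with log2 fold changes of -0.063 ± 0.075 and 0.036 ± 0.059 on the HFD. *Lpl*, the lipoprotein lipase gene, was at -0.43 ± 0.20 on chow (unadjusted p = 0.0369) and -0.15 ± 0.21 on the HFD. *Pnpla2*, the adipose triglyceride lipase gene, was at 0.24 ± 0.12 on chow (unadjusted p = 0.0489) and -0.066 ± 0.098 on the HFD. These enzymes act mainly on other lipids. On other routes to N-acylethanolamines, *Gde1*, a glycerophosphodiesterase gene, was at 0.064 ± 0.080 and -0.058 ± 0.056. *Naaa*, whose product hydrolyses N-acylethanolamines in lysosomes, was at -0.027 ± 0.11 and 0.029 ± 0.11. Intracellular carriers bring anandamide to its hydrolase. The carrier gene *Scp2* was at 0.029 ± 0.068 and -0.0021 ± 0.057. *Ppara*, a nuclear receptor for N-acylethanolamines, was at -0.068 ± 0.28 and -0.091 ± 0.26 with only 53.0 normalized counts on chow, and *Ptgs2*, the cyclooxygenase gene whose product oxidizes both lipids, was too low to test on chow at 18.9 normalized counts.

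Because CB1 and its enzymes differ in level between brain regions and cell types, marker genes of the cells and neighboring regions that a dissection could hold were read in the same tables. *Cnr1* is abundant in the striatum, which lies near the hypothalamus, and striatal markers had lower point estimates in the chow-fed *Gpr75-/-* mice as a list. On chow 0 of 8 striatal genes had a fold above 1, with a median log2 fold change of -0.74 and a summed level of 7316 normalized counts in WT and 4912 in *Gpr75-/-* mice. Their most abundant gene, the enkephalin gene *Penk*, was at -0.54 ± 0.41. In the Wald test 0 of the 8 passed after Benjamini-Hochberg adjustment and 1 at an unadjusted p under 0.05, and their SEs were large, with a median of 0.53. On the HFD 3 of 8 striatal genes were above 1, with a median of -0.061 and *Penk* at 0.061 ± 0.063. In the Wald test of the difference between the diets 0 of 8 striatal genes were called and 0 had an unadjusted p under 0.05. Neuronal markers had medians of -0.036 on chow and -0.024 on the HFD, with *Snap25*, their most abundant gene, at -0.035 ± 0.059 and -0.055 ± 0.056. On the HFD 2 of 10 neuronal genes had an unadjusted p under 0.05 (20.0%, against 4.49% of all genes), both below 1, and 0 were called. Markers of GABA and cholecystokinin neurons, the latter rich in CB1 in forebrain, had medians of -0.046 and -0.024, with *Gad2* at -0.087 ± 0.077 and -0.022 ± 0.052. Of the 8 genes of that list 2 had an unadjusted p under 0.05 on the HFD (25.0%, against 4.49% of all genes), both above 1, the neuropeptide genes *Npy* at 0.47 ± 0.13 and *Vip* at 0.33 ± 0.15, and none passed the adjustment, with *Npy* at an adjusted p of 0.0806 in the Wald test. The cholecystokinin gene *Cck* was at 0.11 ± 0.12 and -0.25 ± 0.22. All 3 neuropeptides are mentioned here because of their values. The part of these cells in the values of *Cnr1* and the enzymes was not tested.

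Several other marker lists had medians away from 0. On the HFD 12 of 12 hypothalamic genes had a fold above 1 (median log2 fold change 0.25, summed levels 15874 in WT and 19051 in *Gpr75-/-* mice), led by *Pmch* at 0.37 ± 0.072, the 1 gene of the list past the adjusted threshold, against 8 of 12 on chow (median 0.021). On the HFD 5 of the 12 had an unadjusted p under 0.05 (41.7%, against 4.49% of all genes), each above 1. In the Wald test of the difference between the diets 0 of 12 were called. At an unadjusted p under 0.05 there was 1 (8.33%, against 2.89% of all genes). Thalamic markers on the HFD gave 0 of 6 above 1 (median -0.23, *Slc17a6* at -0.084 ± 0.051), and on chow 3 of 6. For the difference 0 of these 6 were called and 1 had an unadjusted p under 0.05 (16.7%, against 2.89%). Oligodendrocyte markers had medians of -0.17 on chow and -0.24 on the HFD, with *Mbp*, a myelin protein gene, at -0.18 ± 0.060 and -0.23 ± 0.049. Of 14 such genes 2 were called on chow, the aspartoacylase gene *Aspa* and the fatty acid hydroxylase gene *Fa2h*, and 7 on the HFD, each below 1, where 0.0618% and 0.199% of all genes tested were called. Oligodendrocyte precursor markers had medians of -0.087 and -0.17, with *Bcas1*, their most abundant gene, at -0.17 ± 0.079 and -0.17 ± 0.047. On the HFD 5 of 8 precursor genes had an unadjusted p under 0.05 (62.5%, against 4.49% of all genes), each below 1, and 0 were called. Choroid plexus markers had a median of 2.41 on chow, with summed levels of 873 in WT and 7506 in *Gpr75-/-* mice and p-values left blank for 7 of 10 as count outliers. *Ttr*, the transthyretin gene and their most abundant on chow, was at 5.04 ± 2.21 there and among those with a blank p-value. On the HFD 5 of 10 choroid plexus genes were analysed, with a median of -0.045 and *Clic6*, a chloride channel gene and the most abundant, at 0.097 ± 0.11. *Ttr* was the 1 called gene among them, at -1.49 ± 0.33 (adjusted p = 0.00692 in the Wald test), opposite in direction to chow.

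Red blood cell markers had a median of 0.60 on chow, where 5 of 5 had a fold above 1 and the summed levels were 5156 normalized counts in WT and 8194 in *Gpr75-/-* mice. Of these 2 were called, the beta globin genes *Hbb-bs*, the most abundant, at 0.78 ± 0.10 (adjusted p = 3.91e-10) and *Hbb-bt* at 0.72 ± 0.11 (adjusted p = 9.49e-07), both in the Wald test with Benjamini-Hochberg adjustment. On the HFD 0 of 5 were above 1, with a median of -0.18, *Hbb-bs* at -0.11 ± 0.25 and 0 called. For the difference between the diets 0 of 5 were called and 5 had an unadjusted p under 0.05 (100%, against 2.89% of all genes). *Hbb-bt*, *Aspa* and *Fa2h* were named after their values were seen. In the 5 other lists, for cortex and hippocampus, astrocytes, microglia, endothelial cells, and ependymal cells with tanycytes, the medians lay between -0.097 and 0.042. Their most abundant genes on chow, *Camk2a*, *Aldoc*, *Csf1r*, *Flt1* and *Vim* in that order, had log2 fold changes there of -0.011 ± 0.076, 0.0017 ± 0.064, -0.058 ± 0.083, -0.11 ± 0.081 and 0.24 ± 0.13. On the HFD *Camk2a* for cortex and hippocampus, *Slc1a3* for astrocytes, *Slco1a4* for endothelial cells and *Vim* for ependymal cells with tanycytes were the most abundant, at -0.17 ± 0.061, -0.019 ± 0.055, -0.064 ± 0.074 and 0.21 ± 0.13. At an unadjusted p under 0.05 on the HFD there were 3 of 7 cortex and hippocampus genes (42.9%, against 4.49% of all genes). Of these 1 had a fold above 1 and 2 below, and 0 were called. Over that list 6 of 7 had a fold below 1 on the HFD. On chow 0 of 8 endothelial genes had a fold above 1, and 0 had an unadjusted p under 0.05. Beside these lists, the medians of the 8 endocannabinoid genes were 0.033 on chow and -0.052 on the HFD. What the shifts in tissue markers contribute to the folds of the 8 genes was not tested.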

How the data were processed

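Hypothalamus mRNA of 12 mice was grouped by the labels' genotype and diet. The authors prepared SMART-Seq libraries and tested the genotypes against each other with DESeq2, on raw counts and within each diet; the submitters' processing notes name STAR, featureCounts and StringTie, whose settings are not given in the sources used here. The signal deposited per gene is the mean count over 6 mice after division by size factors. The authors deposited the log2 fold change, without shrinkage, and its SE. The score the authors deposited is the Wald statistic, the log2 fold change over its SE. The deposited p-value is blank where the authors' fit found a count outlier, and the adjusted p-value also where the mean was low; the 8 genes have both. The authors also deposited group means, whose values fit log2 of 1 + log2 CPM and which served an alternative.

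From the fold changes and SEs, 2-sided normal p-values, Benjamini-Hochberg adjustment over the genes kept by the authors' filter (smallest means 25.1 and 26.9 normalized counts), 95% intervals and the difference between diets were computed. Over the genes measured, mean normalized counts summed to 18280462 on chow and 19420111 on the HFD. Reads outside these genes are not in the sums, so they are not the full depth of a mouse. Exon lengths came from a GENCODE annotation of an older build, matched by Ensembl identifier for 99.8% of genes on chow; lengths and strands alone were taken from it. The members and the 8 pathway and 14 marker lists were chosen with earlier results of these data known. By a rule written before the tables were opened, named are the 8 members, other pathway genes past an adjusted p of 0.05 (there were 0), and the gene with the highest mean of a role or marker list on chow or the HFD. *Plcb1*, *Grm5*, *Lpl*, *Pnpla2*, *Npy*, *Vip*, *Cck*, *Hbb-bt*, *Aspa* and *Fa2h* were added after their values were seen, and genes that overlap a member for their position. Python 3.11.15 was used with numpy 2.4.6, pandas 2.3.3, scipy 1.17.1 and matplotlib 3.10.9. The tests were run on simulated fold changes, drawn from a normal distribution with the real SEs. That checks the computation alone, since normal errors and correct SEs were built in.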

Additional observations from a re-analysis of the deposited data

How the results depend on the processing

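The 8 genes stayed at 0 called on each diet and for the difference under each alternative run: no filter on low means, a mean of at least 100 normalized counts, protein-coding genes alone, fold changes minus the median of all genes, Wald statistics divided by their own spread, and a t distribution with 4 degrees of freedom per diet and 8 for the difference. Of the 144 tests of a member under these, 0 were called. The filters, the division by the spread and the t distribution leave each log2 fold change as it is, and centering moved them by at most 0.0055, so these do not test the sign. The authors' group means, an alternative chosen after seeing the data and without a test, gave 14 of 16 fold changes the same sign, 0 the opposite one and 2 a value of 0, where means with few decimals were equal. The smallest adjusted p-value of a member, with the statistics divided by their spread, was 0.882 for *Mgll* on chow. Over all genes the counts did move. Dividing the Wald statistics by their spread called 20 genes on chow (13 higher, 7 lower), 93 on the HFD (19 higher, 74 lower) and 2 for the difference, against 10, 32 and 0, and the t distribution, with heavier tails by construction, called 0 on chow and 0 on the HFD. With the longest transcript as length, the ratio of the highest to the lowest member level on chow was 17.7 in place of 24.5, and 10 of 16 levels moved by more than the spread between samples. No paired analysis was possible because the tables hold no values of single mice; for the same reason leaving out replicates, the replicate block and other count tools were not run. At this depth counting error is 5.88% to 29.4% of the squared SE of the 8 genes; other depths and group sizes were not tested.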
